A study of Mus musculus with 4 samples.

Results

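The genes described here are the secreted Wnt ligands, their Frizzled receptors (Fzd) and 4 families of secreted or membrane modulators. These are the secreted Frizzled-related proteins (Sfrp), the Dickkopfs (Dkk), the R-spondins (Rspo) and the Lgr receptors of R-spondins. They were chosen by symbol alone, as every gene whose name is one of these 6 family prefixes followed by a number, with or without a final a or b, and whose counts over the 4 libraries summed to more than 0. Of the 55401 genes listed, 44 had such a name and 38 met both conditions: 16 Wnt, 10 Fzd, 4 Sfrp, 3 Dkk, 2 Rspo and 3 Lgr genes. The other 6, Wnt3, Wnt8a, Wnt10a, Dkk4, Rspo2 and Rspo4, had a count of 0 in every library.

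As background, a Wnt protein binds a Frizzled on the cell surface. With the co-receptors Lrp5 and Lrp6 this stops the destruction of β-catenin, which then acts with TCF/LEF factors on target genes, while other Wnt signals run without β-catenin through planar cell polarity proteins. Sfrp proteins carry a Frizzled-like domain that binds Wnts outside the cell, most Dkk proteins block the Lrp co-receptors, and R-spondins bound to an Lgr receptor keep Frizzleds from being removed from the membrane. In the heart the pathway is known from development, and after injury it has been studied in scar formation and in fibroblasts.

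The RNA came from mouse hearts at day 28. The MI group, 2 libraries, had a ligation operation and is labelled as myocardial infarction. The Sham group, also 2 libraries, had a thoracotomy with no ligation and is labelled as control. The samples are labelled only as heart, although the design text speaks of infarcted tissue and of normal left ventricle, and strain, age and sex are not given in the labels. Cyanidin, the compound in the series' title, is in the label of none of these samples, and hearts treated with it are not analysed here. Nothing states that the libraries came from separate animals, so p-values measure the spread between libraries, which may be technical.

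The libraries held 72857907 and 75979320 estimated counts in MI hearts and 72485370 and 66624106 in Sham hearts, with about 4 counts for each fragment. A gene at 12 counts or fewer in a library, about 3 fragments, was treated as at or under the floor, which covers counting error only. Some libraries carried transcripts of other tissue. The atrial light chain gene Myl7 had 0.683 and 0.271 CPM (counts scaled to library size) in MI libraries 1 and 2, against 0.346 and 743 CPM in Sham libraries 1 and 2. The 5 atrial markers summed to 2178 and 1720 CPM in MI libraries and to 165 and 5568 CPM in Sham libraries, and the 4 other than Nppa, a gene that ventricle can also express, stood apart in Sham library 2. There the 5 adipocyte markers also summed to 57.6 CPM, against at most 0.284 CPM elsewhere. The 9 lung markers summed to 265 and 1.17 CPM in MI libraries and to 0.991 and 3.17 CPM in Sham libraries, and a count of 0 was found for 0 and 6 of them in MI libraries and for 7 and 5 in Sham libraries. The cardiomyocyte markers were abundant in every library, at a sum of 44232 and 49380 CPM in MI hearts and of 58674 and 55366 CPM in Sham hearts. Results that lean on Sham library 2 or MI library 1 are given below with and without it. A fit with 1 library left out has a group of 1 library, which is assumed to vary like the other group, so a p lost there is not by itself a smaller difference. Over all genes, such fits gave 432 to 1917 higher and 378 to 1209 lower at an unadjusted p under 0.05 in edgeR, against 1316 and 834 with all libraries.

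Secreted Frizzled-related proteins carried the largest differences between MI and Sham hearts among these genes. Sfrp2 and Sfrp1 were higher in both MI libraries than in both Sham libraries, as were the receptors Fzd2, Fzd7 and Fzd8, while Sfrp5 and Lgr4 were lower in both. The Wnt ligands themselves had low levels, and no ligand differed at an unadjusted p under 0.05 in the quasi-likelihood test of edgeR. No gene of the whole table passed an adjusted p of 0.05 in that test, so these 7 genes are differences at an unadjusted p only. DESeq2, run on the same counts, gave an adjusted p under 0.05 to Sfrp2, Sfrp1, Fzd2 and Sfrp5. In bulk tissue, fewer cells of a type and less RNA per cell cannot be told apart.

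Of the 38 genes, 27 passed the filter on low counts and were tested. Sfrp4, Wnt10b and Wnt2 passed it through their MI libraries, and Rspo3 had neither group wholly above the filter's level. The other 11 (Dkk1, Dkk2, Fzd10, Lgr5, Wnt1, Wnt3a, Wnt6, Wnt7a, Wnt7b, Wnt8b and Wnt16) had at most 17 counts in any library. In edgeR 5 of the 27 were higher in MI hearts at an unadjusted p under 0.05, where 7.12% of all 18475 genes tested were, and 2 were lower, where 4.51% of all genes were. A fit with mitochondrial transcripts left out also left out TMM scaling of library sizes, so the part of each cannot be told apart. In that fit the numbers over all genes were 1966 higher and 432 lower, against 1316 higher and 834 lower in the main fit. For 9 of the 27 genes the lower MI library was above the higher Sham library, as for 24.9% of all genes, and for 4 the higher MI library was below the lower Sham library, as for 21.9% of all genes. The remaining 14 overlapped. At an adjusted p under 0.05 edgeR called 0 of the 27 and 0% of all genes. DESeq2 called 3 of the 22 that it gave an adjusted p higher, where it called 2.78% of all genes with one higher. It called 1 lower, where 1.61% of all genes were called lower. The median log2 difference of MI over Sham was 0.09 over the 27 genes and 0.0031 over all genes tested, with a range of -3.30 (Sfrp5) to 4.25 (Sfrp2).

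**Figure D1:**
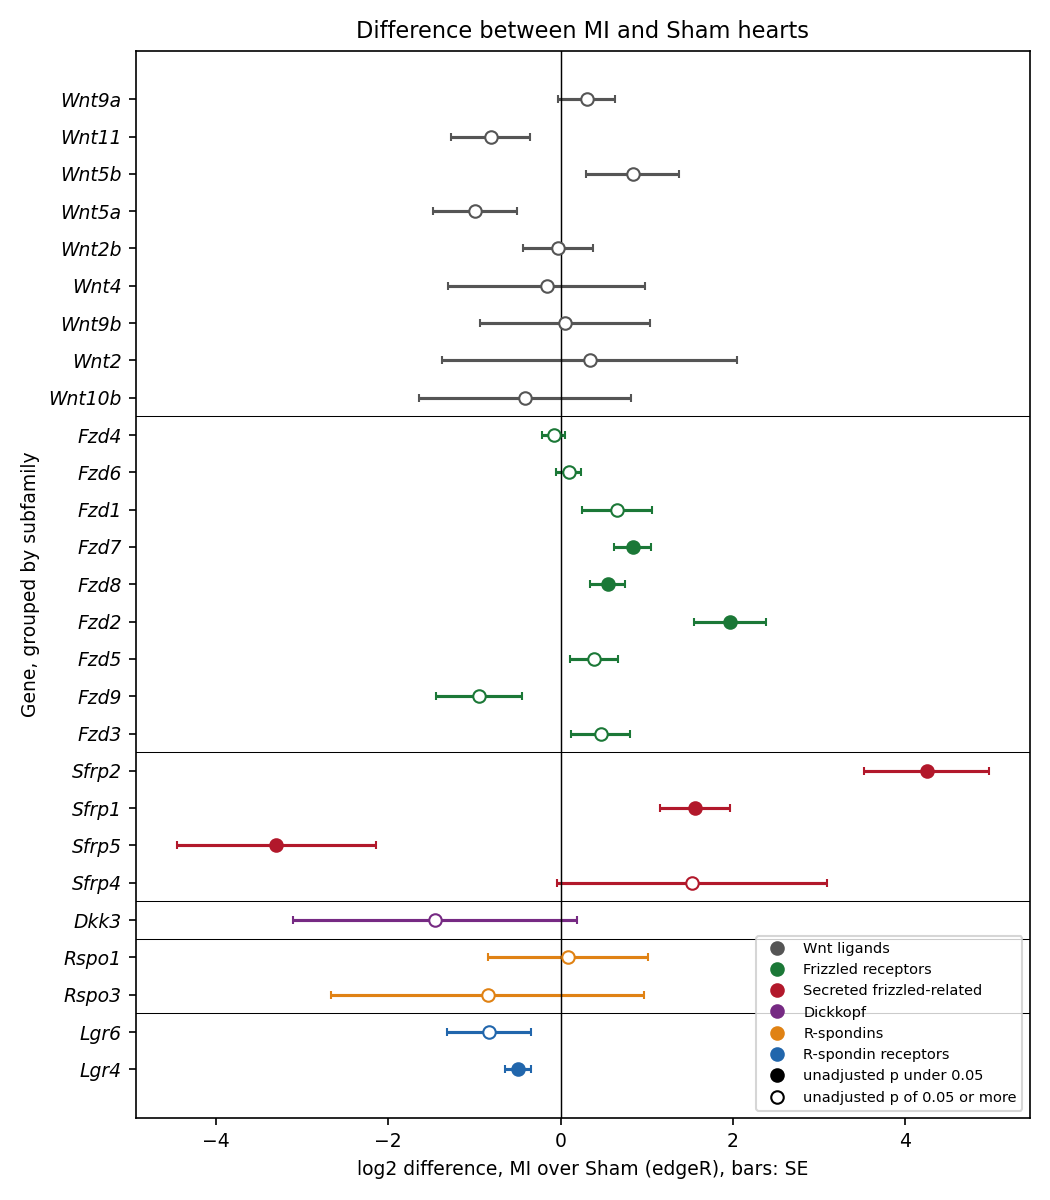
Log2 difference of MI over Sham from edgeR (horizontal axis) for the 27 tested genes, grouped by subfamily (vertical axis), with bars of 1 SE. Sfrp2, at 4.25, and Sfrp5, at -3.30, lie farthest from 0, and the Wnt ligands lie between -0.99 and 0.83.

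The stretch of 250 bases before the transcription start is shown for those of the 7 genes at an unadjusted p under 0.05 that have an entry in the RefSeq promoter table for GRCm38.p6, which are Sfrp2, Sfrp5, Fzd7 and Lgr4. Capitals mark CCAAT or a GC box (GGGCGG) on either strand, so that CCAAT can also read ATTGG and a GC box CCGCCC. The window of Sfrp2 lies at chr3:83766071-83766320 on the plus strand, that of Sfrp5 at chr19:42202253-42202502 on the minus strand, that of Fzd7 at chr1:59481897-59482146 on the plus strand and that of Lgr4 at chr2:109917397-109917646 on the plus strand. The Fzd7 window ends upstream of the start that the deposited table gives for the gene.
Sfrp2: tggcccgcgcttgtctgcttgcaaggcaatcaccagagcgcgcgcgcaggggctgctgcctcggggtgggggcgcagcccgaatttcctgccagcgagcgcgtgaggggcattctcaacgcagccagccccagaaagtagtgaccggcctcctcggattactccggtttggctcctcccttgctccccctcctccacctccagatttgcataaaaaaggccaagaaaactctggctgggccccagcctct
Sfrp5: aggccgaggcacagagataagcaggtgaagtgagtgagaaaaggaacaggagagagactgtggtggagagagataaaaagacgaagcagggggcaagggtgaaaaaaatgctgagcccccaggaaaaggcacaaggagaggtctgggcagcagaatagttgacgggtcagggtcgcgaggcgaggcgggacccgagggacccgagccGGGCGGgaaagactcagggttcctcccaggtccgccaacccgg
Fzd7: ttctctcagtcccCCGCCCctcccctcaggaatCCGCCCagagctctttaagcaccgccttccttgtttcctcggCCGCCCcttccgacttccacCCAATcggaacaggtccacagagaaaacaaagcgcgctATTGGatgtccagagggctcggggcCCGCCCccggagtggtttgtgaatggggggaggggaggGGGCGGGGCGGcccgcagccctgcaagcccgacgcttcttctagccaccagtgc
Lgr4: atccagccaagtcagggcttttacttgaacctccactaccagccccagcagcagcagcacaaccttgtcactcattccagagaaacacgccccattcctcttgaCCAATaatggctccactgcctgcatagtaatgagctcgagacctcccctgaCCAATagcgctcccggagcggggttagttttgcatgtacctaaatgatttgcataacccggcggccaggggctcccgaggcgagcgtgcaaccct
Fzd7 held 2 CCAAT motifs and 6 GC boxes, 2 of which share a base, Lgr4 held 2 CCAAT motifs, Sfrp5 held 1 GC box and Sfrp2 held none of either. CCAAT was in 33.8% and GGGCGG in 32.7% of the 32851 windows of the table. The TCF/LEF letters ATCAAAG or TTCAAAG, in 7.48% of windows, and the TATA letters TATAAA, in 12.4%, were in none of these 4 windows, which says only that those letters are not there. The G and C content was 63.6% for Sfrp2, 59.6% for Sfrp5, 65.2% for Fzd7 and 55.6% for Lgr4, against a median of 52.4% over all windows.

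Per transcript length, the most abundant of these genes differed between libraries. In FPKM, a fragment abundance scaled by transcript length and library size, Sfrp2 led in MI library 1, Fzd4 in MI library 2 and Sham library 1, and Dkk3 in Sham library 2. The 4 Sfrp genes together summed to 48.94 and 17.02 FPKM in MI hearts, against 2.40 and 7.32 FPKM in Sham hearts. Sfrp2 made up 77.7 and 66.7% of that sum in MI hearts and 25.4 and 21.7% in Sham hearts. Sfrp1 made up 21.8 and 31.6% in MI hearts and 65 and 42.6% in Sham hearts, and Sfrp5 made up 34.7% in Sham library 2. The Sfrp sum was thus higher in both MI libraries and was made mostly of Sfrp2 there. The Fzd genes summed to 25.95 and 22.4 FPKM in MI hearts and to 16.84 and 21.25 FPKM in Sham hearts. Fzd4 made up 52.8 and 54.3% of the Fzd sum in MI hearts and 60.7 and 62.8% in Sham hearts. The sum of the Wnt genes was 4.98 and 4.88 FPKM in MI hearts and 3.67 and 4.93 FPKM in Sham hearts, so the groups were close. The Lgr sum was 5.45 and 5.23 FPKM in MI hearts and 4.86 and 10.18 FPKM in Sham hearts, and the Dkk sum, almost all Dkk3, was 9.55 and 6.33 FPKM in MI hearts and 0.47 and 38.5 FPKM in Sham hearts. Both of these sums overlapped, with Sham library 2 the highest.

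**Figure D2:**
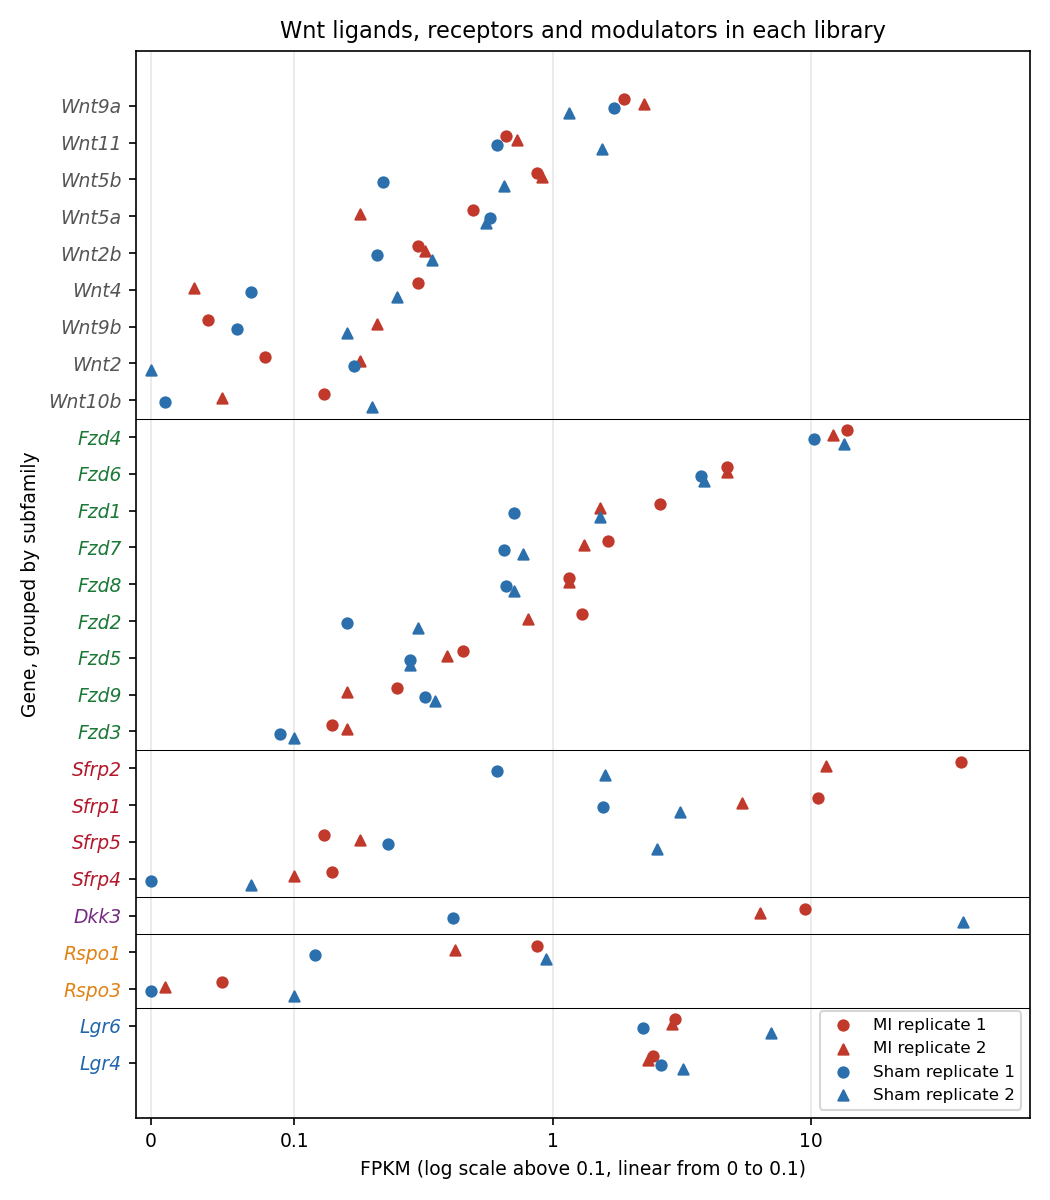
FPKM of each of the 27 tested genes (vertical axis, grouped by subfamily) in each library (horizontal axis, logarithmic above 0.1 FPKM), with MI and Sham libraries as separate points. The plot shows Sfrp2 at 38.01 and 11.36 FPKM in MI hearts against 0.61 and 1.59 in Sham hearts, and most Wnt genes under 1 FPKM.

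**Figure D3:**
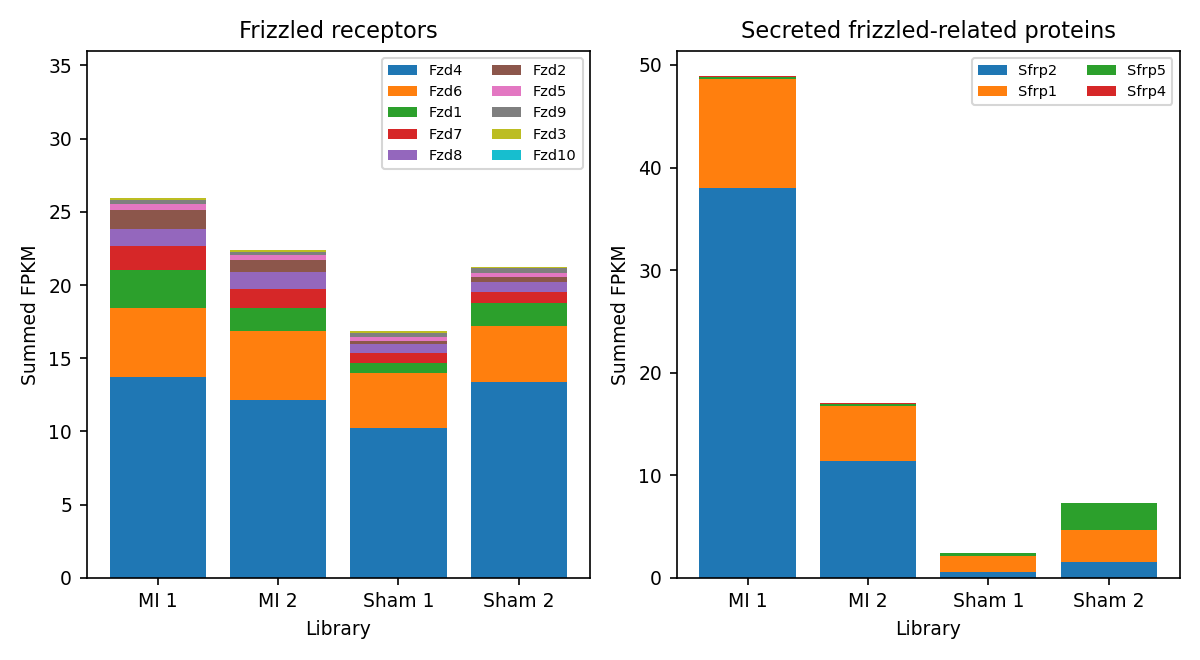
Summed FPKM of the Sfrp genes and of the Fzd genes in each library (vertical axes), stacked by gene. The Sfrp sum is highest in MI library 1, at 48.94, and lowest in Sham library 1, at 2.40, while Fzd4 makes up more than any other receptor in every library.

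Sfrp2, which binds Wnts outside the cell, was the gene with the largest difference. It lies on GRCm38 chromosome 3, at 83766321 to 83774316. Its level was 78.2 and 26.2 CPM in MI hearts against 1.65 and 3.84 CPM in Sham hearts, or 52.2 ± 36.7 against 2.74 ± 1.54 (SD, n = 2 each). The lower MI library was above the higher Sham library, although the MI libraries differed from each other by more than either Sham library's level. Its log2 difference of MI over Sham was 4.25 ± 0.72 (SE), with an unadjusted p of 0.00228 and an adjusted p of 0.246 in edgeR, and an adjusted p of 5.83e-11 in DESeq2. Leaving out each library in turn gave 3.26 to 4.98, the lowest without MI library 1, with an unadjusted p of 0.00611 there. An antisense gene, Gm26771, overlaps it and had a count of 0 in every library.

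Sfrp1, a related Wnt-binding protein on chromosome 8 at 23411502 to 23449632, had 44.5 and 25.2 CPM in MI hearts against 8.48 and 15.2 CPM in Sham hearts. Both MI libraries were above both Sham libraries, and within each group one library stood well above the other. On the log2 scale the difference was 1.56 ± 0.41, with an unadjusted p of 0.0131 and an adjusted p of 0.327 in edgeR and of 0.00703 in DESeq2. Without MI library 1, which carried the lung transcripts, it was 1.09 with an unadjusted p of 0.0684 in edgeR. The part of lung RNA in the Sfrp1 and Sfrp2 levels of that library was not tested.

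Sfrp5, known in mice as an inhibitor of Wnt5a from fat tissue, went the other way, but on the strength of 1 library. On chromosome 19, at 42197971 to 42202252, it had 0.240 and 0.361 CPM in MI hearts against 0.535 and 5.39 CPM in Sham hearts. The other libraries were close together, and Sham library 2 was far above them. The difference was -3.30 ± 1.16 on the log2 scale, with an unadjusted p of 0.0372 and an adjusted p of 0.403 in edgeR, and an adjusted p of 0.0402 in DESeq2. Without Sham library 2 it was -0.83 with an unadjusted p of 0.346, and the unadjusted p was 0.158 without MI library 1 and 0.121 without MI library 2. Without Sham library 1 it was -4.16, with an unadjusted p of 0.000444. Sham library 2 carried the atrial and fat transcripts. Mesothelial markers were present in every library, summing to 26.9 and 10.3 CPM in MI hearts and to 15.9 and 47.2 CPM in Sham hearts. Their sum was highest in Sham library 2, although Krt19 and Bnc1 were highest in MI library 1. The part of atrial, fat and mesothelial transcripts in the Sfrp5 level was not tested. Sfrp4 was near the floor, at 0.563 and 0.464 CPM in MI hearts and 0 and 0.354 CPM in Sham hearts, and its log2 difference of 1.52 ± 1.56 was within its error.

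Frzb, a Wnt-binding protein of the same kind whose name falls outside the family prefixes, was also higher in MI hearts with less spread. It had 23.0 and 18.6 CPM in MI hearts against 3.51 and 4.50 CPM in Sham hearts. The groups were far apart relative to the spread within each. The difference was 2.38 ± 0.22 on the log2 scale, with an unadjusted p of 0.000156 and an adjusted p of 0.185 in edgeR and of 3.74e-14 in DESeq2, and leaving out each library gave 2.21 to 2.57.

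Fibroblast transcripts, and vessel transcripts in part, moved with these genes. The 8 fibroblast markers summed to 3700 and 2235 CPM in MI hearts against 731 and 964 CPM in Sham hearts. At an unadjusted p under 0.05 in edgeR, 6 of the 8 were higher in MI hearts, beside 7.12% of all genes. Among the 8 the fibroblast receptor gene Pdgfra had a log2 difference of 0.30 ± 0.15 and the collagen gene Col1a1 of 2.32 ± 0.47. Shares of the CPM of a fibroblast gene depended on which gene was used, and no test was made of them. Sfrp2 was 14.2 and 11.6% of Col1a1 in MI hearts against 2.47 and 4.32% in Sham hearts, and 224 and 61.2% of Pdgfra in MI hearts against 5.16 and 12.3% in Sham hearts. It was thus higher in both MI libraries relative to either gene. Sfrp1 was 8.08 and 11.2% of Col1a1 in MI hearts against 12.7 and 17.1% in Sham hearts, but 128 and 58.8% of Pdgfra in MI hearts against 26.5 and 49.0% in Sham hearts. Relative to Dcn, a proteoglycan gene of fibroblasts, Sfrp1 was at 8.61 and 4.34% in MI hearts against 2.64 and 4.02% in Sham hearts. Its share was therefore lower in MI hearts against Col1a1 and higher against Pdgfra and Dcn. Frzb was 4.17 and 8.29% of Col1a1 in MI hearts and 5.24 and 5.06% in Sham hearts, but 65.9 and 43.5% of Pdgfra in MI hearts against 11.0 and 14.5% in Sham hearts. Fzd2 was 0.829 and 1.39% of Col1a1 in MI hearts and 1.10 and 1.39% in Sham hearts, but 13.1 and 7.33% of Pdgfra in MI hearts against 2.31 and 3.97% in Sham hearts. For Frzb and Fzd2 the groups overlapped or met against Col1a1 and were apart, with MI higher, against Pdgfra. Of the vessel markers, 3 of 6 endothelial and 2 of 7 mural ones were higher in MI hearts at that threshold and 0 were lower. Over all genes, 7.12% were higher and 4.51% lower. Some vessel markers leaned lower, with a log2 difference of -0.25 for Emcn, -0.34 for Myh11, -0.20 for Abcc9 and -0.08 for Tagln. The endothelial markers summed to 812 and 740 CPM in MI hearts against 602 and 613 CPM in Sham hearts, and the mural markers to 961 and 952 CPM in MI hearts against 821 and 755 CPM in Sham hearts. The part of fibroblast or vessel cell number in these differences was not tested.

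Of the Frizzled receptors, 9 were tested, and 3 were higher in MI hearts at an unadjusted p under 0.05 and 0 were lower, beside 7.12% higher and 4.51% lower over all genes. Their median log2 difference was 0.47. The groups did not overlap for 5 with MI higher and for 1, Fzd9, with MI lower, beside 24.9% and 21.9% over all genes. Fzd4, the receptor also used by norrin in blood vessels, was the most abundant, at 13.7 and 12.17 FPKM in MI hearts and 10.23 and 13.35 FPKM in Sham hearts. The groups overlapped. The log2 difference of Fzd4 was -0.08 ± 0.14 in edgeR, 0.05 with mitochondrial transcripts and TMM scaling left out and 0.13 in limma on log2(FPKM + 1). Fzd6, a receptor known from planar cell polarity in mouse skin, came next, at 21.8 and 24.4 CPM in MI hearts and 22.4 and 20.8 CPM in Sham hearts, with a log2 difference of 0.10 ± 0.14. In edgeR the difference of both these abundant receptors was smaller than its error. That of Fzd6 was 0.23 with mitochondrial transcripts and TMM scaling left out and 0.25 in limma. These settings moved the median of all genes to 0.14 and 0.11, and the unadjusted p of Fzd6 was 0.141 and 0.1 there. Gm26704, which overlaps Fzd6, had at most 46 counts.

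The receptors that differed were less abundant. Fzd2, on chromosome 11 at 102604396 to 102608058, had 4.57 and 3.13 CPM in MI hearts against 0.739 and 1.23 CPM in Sham hearts. The lower MI library was still well above the higher Sham library. Its log2 difference was 1.96 ± 0.42, with an unadjusted p of 0.0059 and an adjusted p of 0.296 in edgeR and of 0.00672 in DESeq2, and it lay between 1.64 and 2.38 with each library left out. Fzd7, on chromosome 1 at 59482424 to 59486955, had 7.07 and 6.38 CPM in MI hearts against 3.65 and 3.90 CPM in Sham hearts. Its libraries were close within each group and did not overlap between them. A log2 difference of 0.83 ± 0.21 had an unadjusted p of 0.0118 and an adjusted p of 0.327 in edgeR, and an adjusted p of 0.0914 in DESeq2. Without MI library 1 the difference was 0.77 and the unadjusted p 0.0774. Fzd8 had 6.64 and 7.44 CPM in MI hearts against 4.88 and 4.78 CPM in Sham hearts, again without overlap. Its log2 difference was 0.55 ± 0.20, with an unadjusted p of 0.0448 and an adjusted p of 0.421 in edgeR, and with 1 library left out the difference was 0.47 to 0.63 and the unadjusted p 0.0752 to 0.2.

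The other receptors did not reach that threshold. Fzd1 had 10.4 and 6.82 CPM in MI hearts and 3.73 and 7.19 CPM in Sham hearts, so the groups overlapped, with a log2 difference of 0.66 ± 0.40. Without Sham library 2 it was 1.21, and without Sham library 1 it was 0.26. Fzd5 and Fzd3 were higher in both MI libraries, by 0.38 ± 0.28 and 0.47 ± 0.35 on the log2 scale, and Fzd9 was lower in both, at -0.95 ± 0.50. These 3 had at most 3.01 CPM in any library. Fzd10 had a count of 4 in MI library 1 and 0 in the others.

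**Figure D4:**
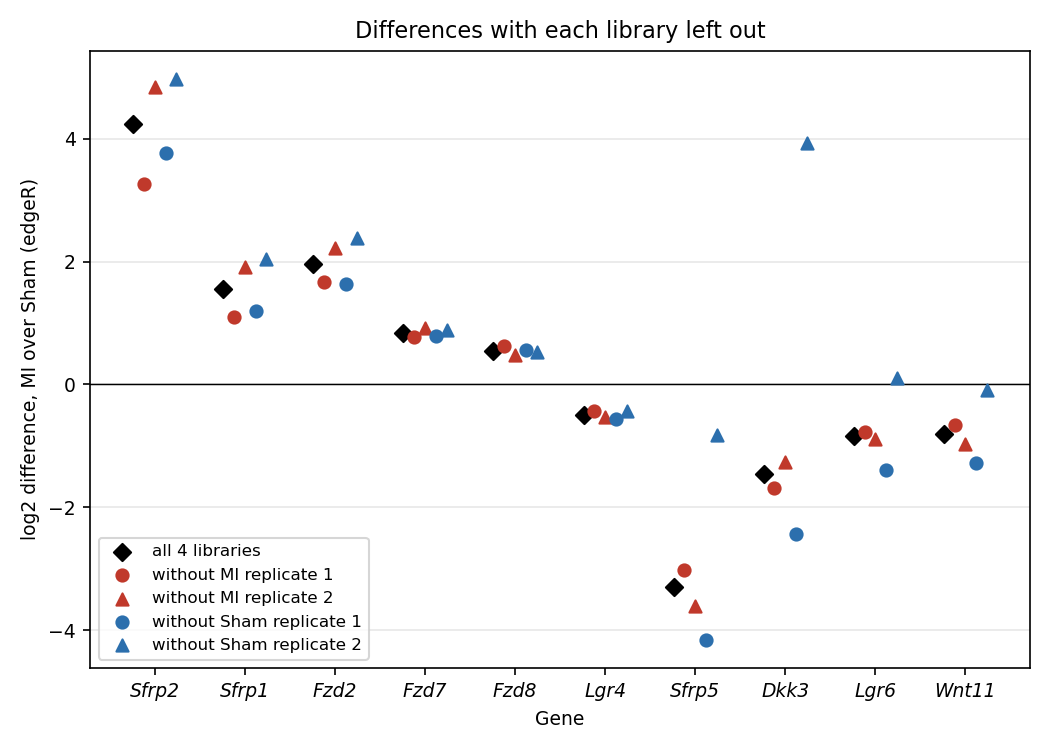
Log2 difference of MI over Sham from edgeR (vertical axis) for named genes (horizontal axis), with all 4 libraries and with each library left out in turn. Sfrp2, Fzd2 and Fzd7 stay above 0 in every fit, whereas Dkk3 is 3.94 without Sham library 2 and -1.46 with all libraries.

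No Wnt ligand was abundant and none of the 9 tested differed at an unadjusted p under 0.05. Their median log2 difference was -0.03. For 1 both MI libraries were above both Sham libraries and for 1 both were below, beside 24.9% and 21.9% of all genes. The other 7 overlapped between groups. Wnt9a, the highest per length, had 6.01 and 8.05 CPM in MI hearts and 7.09 and 4.30 CPM in Sham hearts. Its groups overlapped, with a log2 difference of 0.30 ± 0.33. Wnt11, a ligand of the branch without β-catenin that is known from heart development, had 2.64 and 3.25 CPM in MI hearts and 3.15 and 7.19 CPM in Sham hearts. Only Sham library 2 stood above the others, and the log2 difference was -0.81 ± 0.45 with all libraries and -0.10 without that one. Without Sham library 1 it was -1.29, with an unadjusted p of 0.008.

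Wnt5a and Wnt5b, close relatives that act mainly without β-catenin, leaned opposite ways. Wnt5b had 2.21 and 2.58 CPM in MI hearts against 0.739 and 1.94 CPM in Sham hearts, above both Sham libraries in each MI library, with a log2 difference of 0.83 ± 0.54 and an adjusted p of 0.594 in edgeR. Without Sham library 2 it was 1.69, and without Sham library 1 it was 0.30. Reads of Fbxl14, which overlaps it on the other strand with 737 and 720 counts in MI hearts and 466 and 522 in Sham hearts, may be counted with it, since the use of strand in counting is not given, and its value is uncertain. Wnt5a had 3.70 and 1.48 CPM in MI hearts against 5.54 and 4.79 CPM in Sham hearts, below both Sham libraries in each MI library. Its log2 difference was -0.99 ± 0.48, with an adjusted p of 0.503 in edgeR. It was -1.79 without MI library 1 and -0.47 without MI library 2. Whether Wnt5a and Wnt5b differ from each other in response was not tested. Wnt2b had 1.12 to 1.59 CPM over the 4 libraries, and Wnt4, Wnt9b, Wnt2 and Wnt10b had 1.20 CPM or less in every library, with overlapping groups. The antisense partners of Wnt5a and Rspo1, Gm2670 and Gm12930, had a count of 0 in every library.

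Among the modulators of the co-receptors and receptors, Dkk3 turned on which Sham library was read. Dkk3, a divergent Dickkopf not known to block the Lrp co-receptors as Dkk1 does, lies on chromosome 7 at 112116017 to 112159057. It had 30.5 and 22.7 CPM in MI hearts against 1.73 and 144 CPM in Sham hearts. The Sham libraries lay on either side of both MI libraries, so the groups overlapped. The log2 difference was -1.46 ± 1.65 with all libraries, with an adjusted p of 0.765 in edgeR. Without Sham library 2 it was 3.94, with an adjusted p of 0.063, and without Sham library 1 it was -2.44, with an unadjusted p of 0.00021. In limma on log2(FPKM + 1) it was 0.23. The part of the atrial transcripts of Sham library 2 in its Dkk3 level was not tested. Dkk1 and Dkk2 had at most 12 and 17 counts.

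The R-spondins and their receptors showed the same dependence in part. Rspo1 had 1.62 and 0.890 CPM in MI hearts and 0.315 and 2.05 CPM in Sham hearts. Its log2 difference was 0.09 ± 0.93 with all libraries, 1.99 without Sham library 2 and -0.70 without Sham library 1. Rspo3 had 23 counts at most. Lgr6, an R-spondin receptor, had 19.5 and 21.2 CPM in MI hearts and 19.0 and 53.4 CPM in Sham hearts, so that 3 libraries were alike and Sham library 2 was higher. Its log2 difference was -0.83 ± 0.49 with all libraries, 0.10 without Sham library 2 and -1.39 without Sham library 1. Lgr4, the related receptor on chromosome 2 at 109917647 to 110014257, did not follow that pattern. It had 13.8 and 14.8 CPM in MI hearts against 19.2 and 21.1 CPM in Sham hearts, with a narrow spread in each group and no overlap. The log2 difference was -0.50 ± 0.15, with an unadjusted p of 0.021 and an adjusted p of 0.348 in edgeR. Its unadjusted p was not under 0.05 with mitochondrial transcripts and TMM scaling left out or in limma on log2(FPKM + 1). In edgeR the difference lay between -0.56 and -0.43 with each library left out. The unadjusted p was 0.132 without MI library 1, 0.0862 without MI library 2 and 0.0513 without Sham library 2. Lgr5, a marker of stem cells in the mouse intestine, had at most 16 counts.

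The rest of the pathway was read from 8 lists, which together hold 89 genes outside the 6 families, 84 of them tested. In edgeR 10 were higher and 2 lower in MI hearts at an unadjusted p under 0.05, and 0 had an adjusted p under 0.05. Over all genes the unadjusted shares were 7.12% higher and 4.51% lower. DESeq2 gave an adjusted p under 0.05 to 5 of the 79 for which it had one, all higher. Of all genes with one, it called 2.78% higher and 1.61% lower. The median log2 difference of the 84 genes was 0.13. Higher among the other secreted modulators were Frzb, Igfbp4 and Cthrc1, 3 of 10 tested. Of these, Cthrc1 passed the filter on low counts through its MI libraries only, the group where it was higher. Igfbp4, a binding protein of insulin-like growth factors that can also block Wnt signalling, had 118 and 87.7 CPM in MI hearts against 28.8 and 53.9 CPM in Sham hearts, with a log2 difference of 1.32 ± 0.34 and an adjusted p of 0.00825 in DESeq2. Cthrc1, a secreted protein of scar fibroblasts that binds Wnts and Frizzleds, had 1807 and 563 counts in MI hearts against 45 and 0 in Sham hearts. Its log2 difference of 5.35 ± 1.48 had an unadjusted p of 0.0161 in edgeR, but its adjusted p in DESeq2 was 0.344. With so few Sham counts the size of its difference is uncertain. Without MI library 1 the log2 difference was 1.09 for Igfbp4, with an unadjusted p of 0.0722, and 4.37 for Cthrc1, with an unadjusted p of 0.0911, against 1.32 and 5.35 with all libraries.

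Of the 24 cytoplasmic genes tested, 5 were higher at an unadjusted p under 0.05, beside 7.12% of all genes, and 1 was lower, a share near the 4.51% of all genes. Nkd2 and Dact3, both known as inhibitors that act on Dishevelled, were among them. Nkd2 had 7.11 and 6.08 CPM in MI hearts against 1.84 and 2.31 CPM in Sham hearts, with a log2 difference of 1.67 ± 0.26 and an adjusted p of 0.000189 in DESeq2. Dact3 had 12.2 and 9.73 CPM in MI hearts against 5.21 and 5.48 CPM in Sham hearts, with a log2 difference of 1.03 ± 0.21 and an adjusted p of 0.00987 in DESeq2. Neither gene overlapped between groups. Dact1, a relative of Dact3, was higher by 1.07 ± 0.30, and by 0.75 with an unadjusted p of 0.115 without MI library 2. The β-catenin gene Ctnnb1 was higher by 0.41 ± 0.12, and Ctnnbip1, whose protein keeps β-catenin from TCF/LEF factors, by 0.44 ± 0.13. Csnk1a1, a kinase that marks β-catenin for destruction, was lower by a log2 difference of -0.38 ± 0.12. Ctnnb1 had 301 and 316 CPM in MI hearts against 230 and 234 CPM in Sham hearts, the most abundant of this group. With 1 library left out the log2 difference of Ctnnb1 stayed at 0.39 to 0.45, while its unadjusted p, 0.0224 with all libraries, was 0.0508 to 0.109. That of Ctnnbip1 stayed at 0.38 to 0.52, with an unadjusted p of 0.138 without MI library 1 and 0.0673 without MI library 2. That of Csnk1a1 stayed at -0.44 to -0.33, with an unadjusted p of 0.139, 0.122 and 0.0651 without MI library 1, MI library 2 and Sham library 1. Gsk3a, a kinase of the same complex, had a log2 difference of -0.15 ± 0.14, and 0.07 in limma on FPKM.

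Prickle1, a core protein of planar cell polarity, was 1 of 13 tested in that list to differ at an unadjusted p under 0.05 in edgeR. That share is near the 7.12% of all genes that were higher. Prickle1 had 21.9 and 20.9 CPM in MI hearts against 12.5 and 11.0 CPM in Sham hearts. Its log2 difference of 0.87 ± 0.15 had an unadjusted p of 0.00262 in edgeR and an adjusted p of 0.00325 in DESeq2. Lrp5 was 1 of 14 among the co-receptors and related receptors, again near the share of all genes. It had 70.8 and 69.4 CPM in MI hearts against 55.3 and 40.8 CPM in Sham hearts. Wls, which carries Wnt proteins out of the cell, had 31.5 and 37.3 CPM in MI hearts against 22.5 and 28.1 CPM in Sham hearts, with a log2 difference of 0.44 ± 0.18 and an unadjusted p of 0.0583 in edgeR. The log2 difference of Lrp5 was 0.54 ± 0.18, with an unadjusted p of 0.0308. It was 0.54, 0.57 and 0.34 without MI library 1, MI library 2 and Sham library 2, with an unadjusted p of 0.115, 0.102 and 0.0587. Kremen1, a receptor of Dkk proteins, was at -0.23 ± 0.12, the Wnt receptor Ryk at 0.25 ± 0.13 and Znrf3, which removes Frizzleds from the membrane, at -0.41 ± 0.26. Porcn, an enzyme that adds a lipid to Wnt proteins, was at 0.17 ± 0.42. Trabd2b, a protease that inactivates Wnts, was at -0.20 ± 0.13 in edgeR and at 0.02 in limma, and Daam1, a polarity protein downstream of Dishevelled, was at 0.31 ± 0.22. None of the 12 nuclear factors tested passed the unadjusted threshold, and their median log2 difference was 0.07. The more abundant of them were Bcl9l, a β-catenin co-factor, at 0.20 ± 0.27, and Tcf7l1, a TCF factor, at 0.38 ± 0.16.

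Of 15 tested genes known as targets of β-catenin in several tissues, 0 were higher and 1 was lower at an unadjusted p under 0.05. These counts are near the background of 7.12% higher and 4.51% lower over all genes, with a median log2 difference of -0.02. The groups did not overlap for 3 of the 15 with MI higher and for 5 with MI lower, beside 24.9% and 21.9% over all genes. Axin2, the most widely used target, had 3.13 and 3.22 CPM in MI hearts against 2.63 and 1.28 CPM in Sham hearts, without overlap. It had a log2 difference of 0.70 ± 0.43 with an unadjusted p of 0.166 in edgeR. The difference of Axin2 was 0.27 without Sham library 2 and 1.31 without Sham library 1. Ccnd1, a cyclin, was at -0.02 ± 0.21 in the main fit, at 0.13 with mitochondrial transcripts and TMM scaling left out and at 0.16 in limma. Myc was at -0.53 ± 0.22. The lower one was Tnfrsf19, at 0.563 and 0.413 CPM in MI hearts against 1.01 and 2.33 CPM in Sham hearts, and its log2 difference of -1.77 ± 0.59 was -1.04 with an unadjusted p of 0.143 without Sham library 2. With each library left out it lay between -2.25 and -1.04, with an unadjusted p of 0.0849 without MI library 1 and 0.142 without MI library 2.

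**Figure D5:**
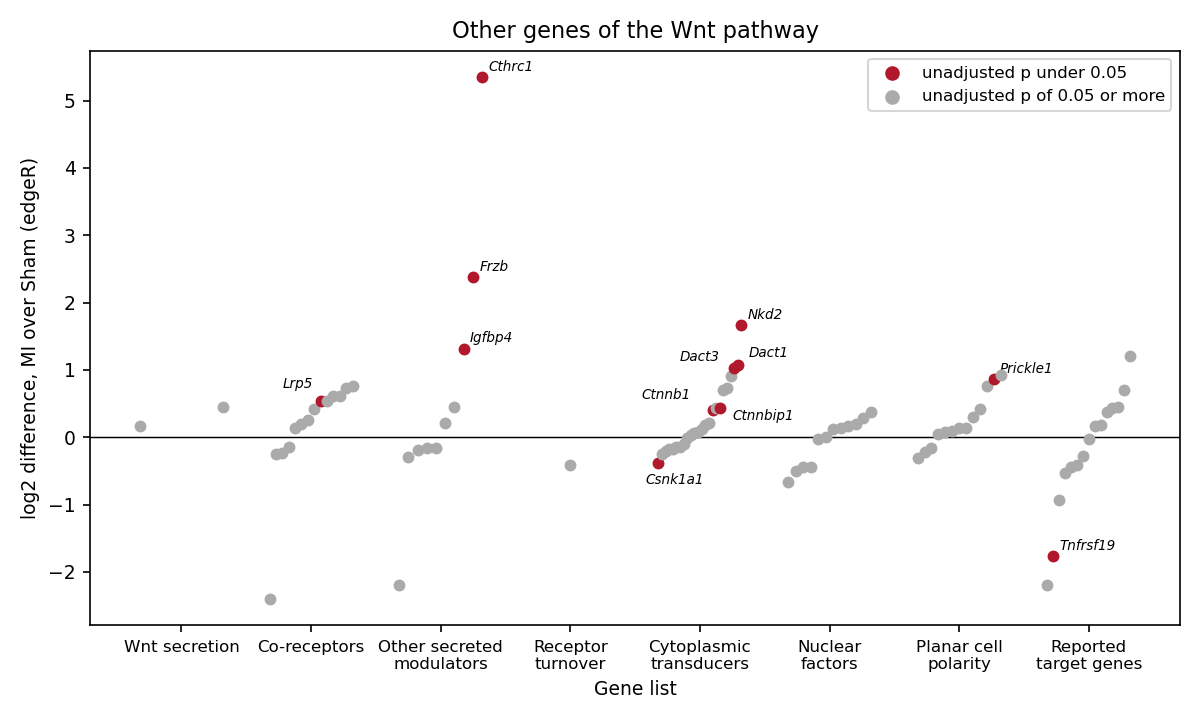
Log2 difference of MI over Sham from edgeR (vertical axis) for each tested gene of 8 lists of other Wnt pathway genes (horizontal axis), 1 point a gene. Cthrc1 and Frzb, at 5.35 and 2.38, lie highest, and the β-catenin targets are spread around a median of -0.02.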

How the data were processed

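Poly(A) RNA libraries of mouse heart, 2 MI and 2 Sham at day 28, were analysed from 1 deposited gene table. For each gene and library it gives an estimated count and an FPKM, per the file headers. In the deposited FPKM the authors' scaling covers transcript length and sequencing depth. Per the submitters' processing notes, StringTie 1.3.4d, HISAT2 2.0.4, UMI-tools and cutadapt 1.9 were used, in roles not stated. The build and any use of strand were not given in the sources used. GENCODE M21 (GRCm38) holds 99.5% of the gene identifiers, and positions were checked against it.

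The deposited estimated counts were rounded to whole numbers and tested over the whole table with edgeR 4.0.16 (R 4.3.3): filterByExpr (min.count 10, min.total 15), TMM scaling and the 2-sided quasi-likelihood test, with Benjamini-Hochberg adjustment over 18475 genes. CPM values use the TMM library sizes, with scaling factors of 1.15 and 1.02 for MI and 0.877 and 0.975 for Sham. Mitochondrial transcripts took 27.3 and 30.9% of counts in MI and 34.0 and 32.6% in Sham. DESeq2 1.42.0 and limma 3.58.1 on log2(FPKM + 1) were alternatives. The edgeR fit without mitochondrial transcripts used library sizes with no TMM scaling. Scripts were tested on simulated data. An exact permutation test of 2 against 2 libraries cannot go below 0.33 and was not used.

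The genes and lists were chosen with earlier results of these data known. Named in full were up to 3 genes of each family with the highest mean FPKM, and every gene at an unadjusted p under 0.05 in edgeR or an adjusted p under 0.05 in DESeq2. For each pathway list, up to 2 genes of highest mean FPKM and all genes at an unadjusted p under 0.05 came under the rule. Axin2 and the shares of fibroblast genes were chosen after their values were seen. The DESeq2 counts leave out genes with no adjusted p (5 of the 27, and 3940 of all genes).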

Additional observations from a re-analysis of the deposited data

How the results depend on the processing

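At an unadjusted p under 0.05 with 1 library left out, 2 (without MI library 1) to 9 (without Sham library 2) Wnt family genes were higher and 0 (without MI library 2 or Sham library 2) to 5 (without Sham library 1) were lower, against 5 and 2 with all libraries in edgeR. Of the other pathway genes, 5 (without MI library 1) to 17 (without Sham library 2) were higher and 0 (without either MI library) to 4 (without Sham library 1) lower, against 10 and 2. At an adjusted p, 0 family genes were called in every edgeR and limma fit (0 to 0 with 1 library left out), and 4 in DESeq2. Lower family genes numbered 0 in each of 3 limma fits. They numbered 1 with a filter at 40 counts, with counts divided by 4, or without mitochondrial transcripts, a fit that also left out TMM scaling. Without mitochondrial transcripts 17 other pathway genes were higher and 0 lower; lower ones numbered 0 in limma with a pseudocount of 1 or 0.1 and 4 with RLE scaling. The median log2 difference of all genes was 0.14 without mitochondrial transcripts, 0.11 in limma at a pseudocount of 1 and 0.20 at 0.1.

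Signs turned for these genes. With mitochondrial transcripts and TMM scaling left out, Wnt2b was 0.091, Fzd4 0.053 and Ccnd1 0.13. In limma, at a pseudocount of 1 (with or without a filter) and of 0.1, Wnt2b was 0.041 and 0.15, Dkk3 0.23 and 0.82, Fzd4 0.13 and 0.14 and Ccnd1 0.16 and 0.18, Trabd2b 0.022 and 0.023, Gsk3a 0.068 and 0.070, and Wnt4 0.000809 at 1 only. With 1 library left out, the log2 difference ran from -0.014 to 0.71 for Wnt9a, -0.66 to 7.55 for Wnt2, -1.69 to 0.83 for Wnt9b, -1.84 to 5.90 for Rspo3, -1.29 to 2.26 for Wnt10b, -0.26 to 0.24 for Wnt2b, -0.70 to 1.99 for Rspo1, -2.44 to 3.94 for Dkk3, -2.38 to 0.95 for Wnt4, -1.39 to 0.10 for Lgr6, -0.19 to 0.040 for Fzd4, -0.17 to 0.63 for Porcn, -0.12 to 0.61 for Bcl9l and -0.30 to 0.24 for Ccnd1. The cause was not tested.

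Nothing in the labels pairs libraries by replicate number, and the correlation of the MI difference (library 1 minus 2) with the Sham one over genes was -0.0561, so libraries of equal number share only that number. With the replicate block, 1002 of all genes were higher and 552 lower, 4 family genes were higher and 3 lower, and 10 and 1 other pathway genes; Wnt9b was -0.29, Rspo3 0.28, Wnt10b 0.24 and Dkk3 0.62.

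Depth limits the 11 family genes at 17 counts or fewer, which were not tested.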
